A study of Equus caballus with 4 samples.

Results

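ERF and 9 genes that restrain the ERK pathway (DUSP1, DUSP4, DUSP5, DUSP6, SPRY1, SPRY2, SPRY4, SPRED1 and SPRED2) were followed in differentiating equine satellite cells (ESC) that received gamma-oryzanol (GO) and were exposed to H2O2 (hydrogen peroxide). They were read from every gene probe that the array design names as exactly one of these genes, which gave 26 probes of 43603. Of the 10 genes, 5 have more than 1 probe. ERF was chosen on its low ratio in an earlier analysis of the same arrays, so its values are given as a description, without a test.

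ERK is the last kinase of a cascade that runs from growth factor receptors through RAS, RAF and MEK, and it drives proliferation of muscle precursors. ERF is an ETS-family transcriptional repressor that active ERK phosphorylates and sends out of the nucleus, which releases the genes that it holds down. The other genes act earlier: Sprouty (SPRY) and SPRED proteins dampen the signal between the receptor and RAF, and dual-specificity phosphatases (DUSP) remove phosphate from the kinases themselves. Several of them are transcribed when ERK is active, so that they form feedback loops.

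Satellite cells are the stem cells of skeletal muscle. These came from m. semitendinosus of 6-month-old stallions, and the study's methods describe choosing a primary line for the experiments, so the replicates are not known to come from different animals. GO, a mixture of ferulic acid esters from rice bran, was given at 0.125 µM for 24 h after the 2nd day of differentiation, and 3 mM H2O2 was present during the last 1 h. For the controls, the study names the same DMSO vehicle and the same H2O2 exposure without GO, whereas the labels say only that GO was left out, so the contrast is GO with H2O2 against control as labelled. RNA was taken on the 3rd day of differentiation.

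There were 4 arrays, each hybridised with treated RNA in red (Cy5) and control RNA in green (Cy3). No array had the dyes exchanged, so dye and treatment cannot be told apart in any value below. The design counts 4 control replicates, but the label of the control ends in the same replicate number on all 4 arrays, and if it was 1 RNA the p-values leave out the spread of the control. Values are log2 ratios of treated over control, where 0 is no difference. The ratios of all tested probes correlated between arrays with r from 0.17 to 0.70. Of the gene spots, 54.9% to 61.4% were well above background in a channel of an array, and none was saturated. All 7 myogenic markers on the array, among them MYOD1 and MYOG, were well above background in both channels (mean log2 ratios 0.02 to 0.44), as were 3 of 4 fibroblast markers (-0.43 to 0.28) and both leukocyte markers, CD68 and CD14 (-0.17 to 0.00). Neither of 2 adipocyte markers and none of 3 endothelial markers was, while 1 of 2 mural markers was (0.06). What part cells other than myoblasts had in the ratios was not tested.

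The probes decide what each gene's ratio can show, because probes that share most of their letters are repeated readings of a single stretch of RNA. Probes are 60 bases long and only the first 30 bases are shown, 5′ to 3′ in the sense of the transcript. The ERF set is shown because 4 of its 5 probes are the same stretch moved along by single bases; capitals mark the bases that the 4 share within the part shown.
ERF A_69_P046364: aggGAAGCTGGGGGGCTGCTGGAGAATGTA
ERF A_69_P046363: ggGAAGCTGGGGGGCTGCTGGAGAATGTAt
ERF A_69_P046362: gGAAGCTGGGGGGCTGCTGGAGAATGTAtt
ERF A_69_P046361: GAAGCTGGGGGGCTGCTGGAGAATGTAttc
ERF A_69_P118766: actgacatcagtgatgaggatgaggaagat

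The 4 start at positions 2476 to 2479 of transcript ENSECAT00000019521, at chr10:13649694-13649756 on the plus strand (EquCab1), and share 57 bases. Each holds the letters AATAAA, the usual signal for the end of a transcript, followed by 16 to 19 bases. These letters, searched on the strand of the probe, are in 8.64% of all gene probes. The last probe, A_69_P118766, starts at position 1324 (chr10:13648542-13648601), 1152 bases nearer to the start of the transcript. The distance is the same on the chromosome, so no intron separates the sites.

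DUSP6 has 2 probes at separate sites, which are shown because their ratios differ.
DUSP6 A_69_P103251: atattttggcttgtgttgtcgcaaagggga
DUSP6 A_69_P020591: gggagagctccattatgttcatggtgtaaa

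The first starts at position 2447 and the second at position 2708 of ENSECAT00000010410, on the minus strand of chromosome 28. DUSP5 and SPRY2 have clusters like that of ERF; the probes at either end of each cluster show the size of the shift, with the bases shared by the whole cluster in capitals.
DUSP5 A_69_P094390: ttgtTTTTTAAACTCGTGGACATTTCATAC
DUSP5 A_69_P094386: TTTTTAAACTCGTGGACATTTCATACctgt
SPRY2 A_69_P040780: tgtaaaaactcaAACACAGTTTGCTGCAAA
SPRY2 A_69_P040776: AACACAGTTTGCTGCAAAgttcccactgtc

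Of the 26 probes, 22 were well above background on all 4 arrays in at least one channel and entered the test: 4 of 5 for ERF and 18 of 21 for the other genes. The single probes of DUSP4, SPRY4 and SPRED2 did not pass this filter and have no tested value. Separate sites of a gene can therefore be compared only for DUSP5 and DUSP6.

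ERF RNA read lower in treated cells than in control cells on each of the 4 arrays at each of its 4 overlapping probes. Averaged over these probes, the log2 ratio was -1.07 on the array of replicate 1, -0.24 on that of replicate 2, -0.74 on that of replicate 3 and -0.41 on that of replicate 4. The mean was -0.62 ± 0.36 (SD, n = 4), which is 0.652 of the control level, or 34.8% lower. In bulk RNA, fewer cells that make a transcript and less of it per cell cannot be told apart.

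At A_69_P046362, the brightest ERF probe, the mean signal of the control channel was 2606, 1298, 1336 and 2067 on replicates 1 to 4, in units of spot brightness. The treated channel read 1360, 1338, 929 and 1893. Before normalisation the treated signal was therefore below the control on replicates 1, 3 and 4 and slightly above it on replicate 2. At the other 3 overlapping probes the treated signal of replicate 2 was also the higher, 1230 against 1221 at A_69_P046364, 1181 against 1079 at A_69_P046361 and 1068 against 1039 at A_69_P046363. The negative ratio of replicate 2 thus appeared with the correction of the overall red-to-green trend of that array.

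After normalisation within and then between arrays, the control channel of A_69_P046362 had log2 levels of 11.16, 10.46, 10.83 and 11.17, and the treated channel 10.04, 10.19, 10.04 and 10.88. The treated level of replicate 4 lay above the control level of replicate 2, so the channels overlapped between arrays although they were separate within each array. Across the 4 probes the control levels spread over 0.70 to 0.82 log2 units between arrays and the treated levels over 0.58 to 0.85. The SD between arrays was 0.32 to 0.39 in the control channel and 0.28 to 0.40 in the treated channel. The array-wide medians of this SD were 0.097 and 0.100. What each channel adds to the variation of the ratio was not tested.

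**Figure D1:**
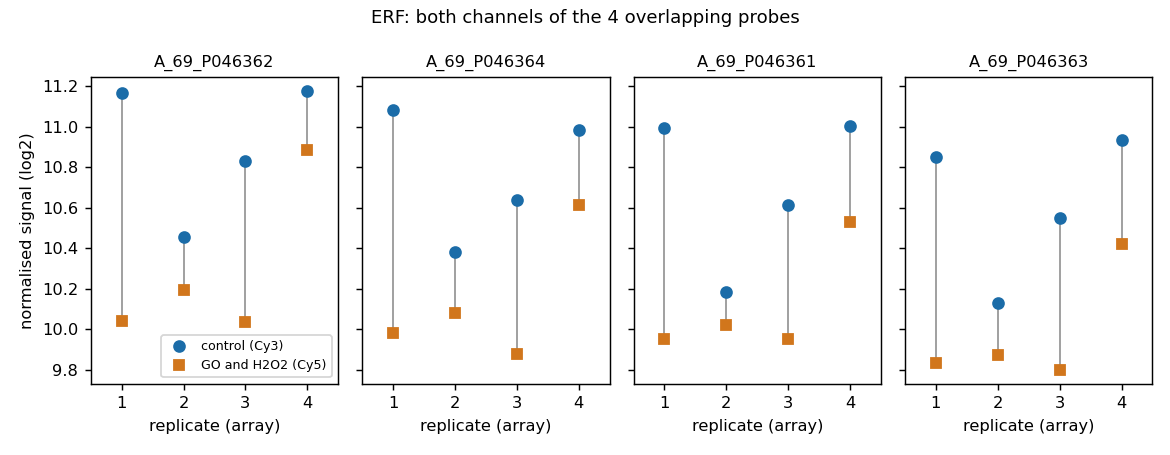
Normalised log2 signal of the 4 overlapping ERF probes, with 1 panel per probe, the 4 arrays along the horizontal axis, circles for the control channel and squares for the GO and H2O2 channel; a line joins the channels of an array. The square lies under the circle on every array, with the longest line on replicate 1 (1.12 at A_69_P046362) and the shortest on replicate 2 (0.26 at the same probe).

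The 4 probes gave nearly the same answer on each array, with a SD between probes of 0.05, 0.06, 0.06 and 0.10 on replicates 1 to 4, against a SD between arrays of 0.36. They sit far apart on the array, from row 61 to row 463 of 532 and from column 13 to column 82 of 85. Their agreement bears on the reading of this stretch of RNA and is not evidence from separate sites of the gene.

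The only ERF probe elsewhere, A_69_P118766, was not well above background in either channel on any array. Its mean signals were 92.9 to 109 in the control channel and 62.6 to 83.0 in the treated channel, against local backgrounds of 41.0 to 59.0. The low ERF ratio therefore rests on the 1 stretch that holds AATAAA.

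Among all 24230 tested probes, the 4 ERF probes took the places 8, 9, 11 and 13 from the lowest mean ratio. Other gene symbols were ordered by their lowest probe with a limma adjusted p under 0.05 and the same sign on all 4 arrays. The lowest were ANXA6 (-1.12 ± 0.75) and DDX6 (-0.75 ± 0.38), followed by PDAP1 (-0.62 ± 0.30) and DAZAP1 (-0.59 ± 0.45). By its mean alone, the lowest ERF probe (-0.63) lay between DDX6 and PDAP1. These orders describe the values that ERF was selected on.

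**Figure D2:**
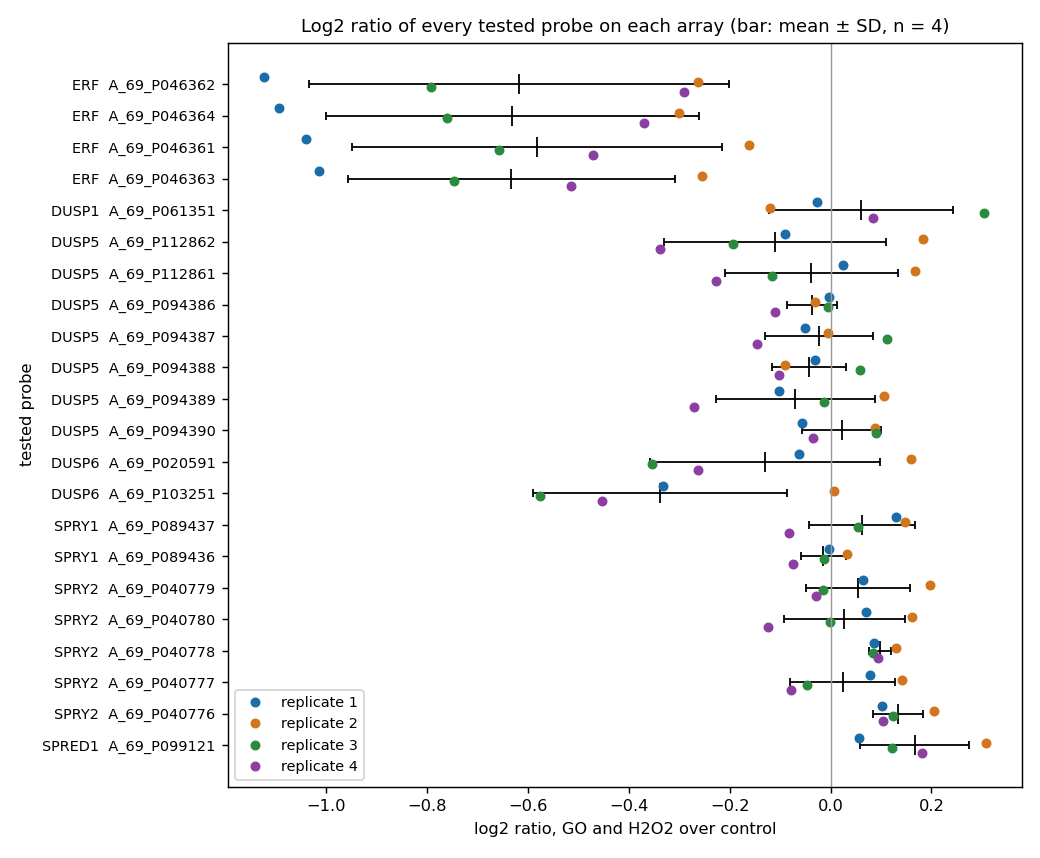
Log2 ratio of treated over control for the 22 tested probes of ERF and the feedback regulators, with a coloured point for each array and a black bar for the mean ± SD (n = 4). The ERF points lie between -1.12 and -0.16 with means of -0.63 to -0.58, while the points of the other probes lie between -0.58 and 0.31 with means of -0.34 to 0.17, so single points overlap.

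The ERF pattern was compared with that of 8140 other gene symbols through the distance between the 4 ratios of a probe and those of A_69_P046362. The other ERF probes lay at distances of 0.096 to 0.261. DDX6, an RNA helicase of messenger ribonucleoprotein granules, was nearest at 0.298, with ratios of -1.23, -0.51, -0.89 and -0.38. PDAP1, a phosphoprotein that binds a platelet-derived growth factor chain, followed at 0.335, with -0.99, -0.25, -0.66 and -0.57.

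DAZAP1, an RNA-binding protein, lay at 0.419, EIF5B, a translation initiation factor, at 0.501 and PAI-1, the plasminogen activator inhibitor, at 0.520. These genes were selected on their likeness to the 4 ERF ratios, so the shared order of arrays is no separate finding. A neighbour was not always low at its other probes: of 4 tested DDX6 probes, 2 had a mean below 0, and their means reached from -0.75 to 0.07. For EIF5B all 4 tested probes had a mean below 0 (-0.55 to -0.16). PDAP1, DAZAP1 and PAI-1 each had a single tested probe.

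**Figure D3:**
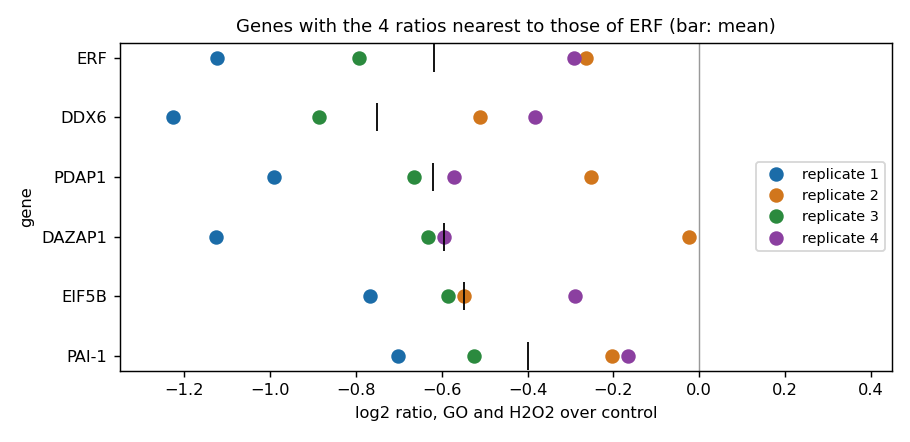
Log2 ratios of the brightest ERF probe and of the nearest probe of the 5 most similar genes, with a point for each array and a bar for the mean. Replicate 1 is the leftmost point in all 6 genes, from -0.70 in PAI-1 to -1.23 in DDX6.

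The tested feedback regulators (6 of 9 genes) lay on both sides of 0. Of their 18 tested probes, 9 had a mean ratio below 0 and 9 above, with a median of 0.0036 beside 0.0030 over all tested probes. However, 7 of the 18 are DUSP5 probes and 5 are SPRY2 probes, in overlapping clusters, so these counts repeat some readings. Averaged over the tested probes of a gene, the means were 0.06 for DUSP1, -0.04 for DUSP5 and -0.23 for DUSP6. They were 0.02 for SPRY1, 0.07 for SPRY2 and 0.17 for SPRED1. One probe, of DUSP6, passed the threshold and was lower, which is 5.56% of the probes. Over the whole array 17.1% of tested probes passed the same limma test (Benjamini-Hochberg adjusted p under 0.05), and 7.59% did so as lower. No regulator probe passed as higher, and at an unadjusted p under 0.05 there were 3 higher and 1 lower, or 22.2% of the 18 beside 36.7% of all tested probes. The 3 higher were the SPRED1 probe and the overlapping SPRY2 probes A_69_P040776 and A_69_P040778. By the methods' t-test with the same adjustment none passed, but only 5 of 24230 probes did over the whole array. That count is therefore no result about the regulators. The same sign on all 4 arrays was seen at 4 regulator probes (1 of DUSP5, 2 of SPRY2 and 1 of SPRED1), and at 43.8% of all tested probes. With the probes of each gene averaged before the limma test, no regulator gene passed, and the lowest adjusted p was 0.0646 for SPRED1. Over the whole array 17.4% of gene names passed that way.

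DUSP6, a cytoplasmic phosphatase that acts on ERK and is itself induced by ERK, fell at one of its probes, while the other did not pass the test. At A_69_P103251 the control signals were 716, 595, 610 and 783 on replicates 1 to 4, and the treated signals were 625, 714, 482 and 610. The normalised log2 ratios were -0.33, 0.01, -0.58 and -0.45. The treated RNA was lower on 3 arrays and level on replicate 2, with a mean of -0.34 ± 0.25 (SD, n = 4), or 0.791 of the control (limma adjusted p = 0.0497).

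The second DUSP6 probe, A_69_P020591, gave ratios of -0.06, 0.16, -0.35 and -0.26. It followed the same order of arrays as the first for the highest and the lowest values, but its mean was smaller, -0.13 ± 0.23, and did not pass (limma adjusted p = 0.306). Another 5 probes that the array names DN510094 read the same strand and share 41 to 46 bases with it. They were found by their sequence, with the DUSP6 values already known, and are not counted among the 26. Their means were -0.14 to -0.22, all 5 had a positive ratio on replicate 2 (0.13 to 0.21) and a negative one on the other arrays, and none passed (limma adjusted p from 0.234 to 0.272).

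The DUSP6 call was narrow. Without replicate 1, 3 or 4 the adjusted p of A_69_P103251 by limma rose to 0.147, 0.132 and 0.171. Only 2, 38 and 0 of 24230 probes then passed over the whole array, so these losses are not particular to DUSP6. Without replicate 2 its mean was -0.45 with a limma adjusted p of 0.0136, and 3899 probes passed over the whole array. With all arrays, A_69_P103251 also passed only without the filter on dim probes (0.0458), and the other processings and tests gave 0.0509 to 0.768.

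**Figure D4:**
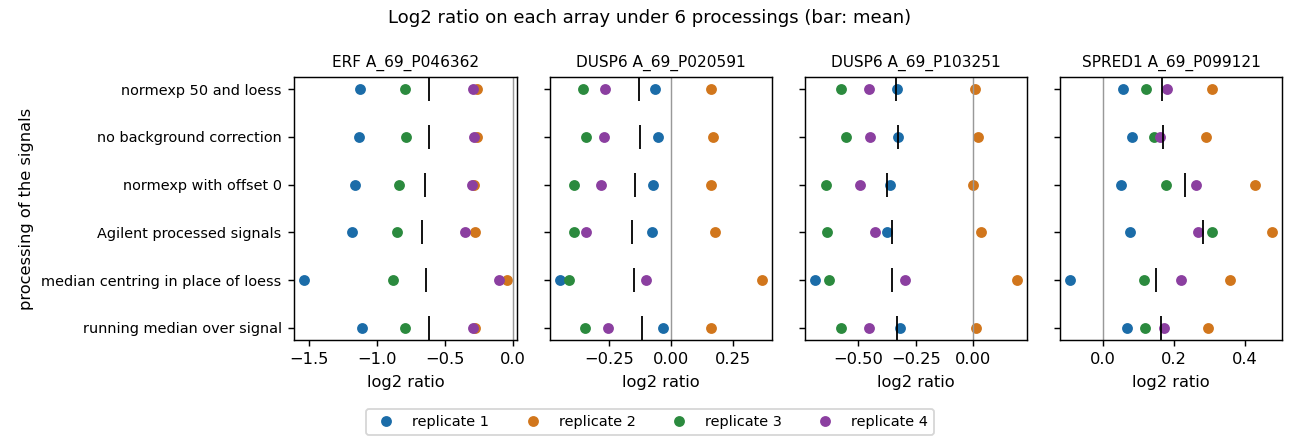
Log2 ratio on each array (points) and mean (bar) of the brightest ERF probe, both DUSP6 probes and the SPRED1 probe under 6 ways of processing the same signals, listed on the vertical axis. The means hold their side of 0 in every row, from -0.61 to -0.67 for ERF, and the points spread furthest where each array was only centred on its median.

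DUSP1, a nuclear phosphatase of ERK, JNK and p38 that is induced early by stress and growth factors, had 1 probe. Its control signals were 1264, 987, 715 and 884, and its treated signals 1421, 1104, 1067 and 1026. The log2 ratios of -0.03, -0.12, 0.30 and 0.09 straddled 0, and the mean of 0.06 ± 0.18 did not pass (limma adjusted p = 0.571).

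DUSP5, a nuclear phosphatase specific for ERK, was read at 2 sites on chromosome 1. The 5 overlapping probes of ENSECAT00000014061 were dim, with mean signals of 93.7 to 158, and their mean ratios were -0.07 to 0.02. The 2 probes assigned to sequence JL624314 had signals of 372 to 725 and mean ratios of -0.11 and -0.04. At the JL624314 site the average of the probes was -0.03, 0.17, -0.16 and -0.28 on replicates 1 to 4, thus higher on replicate 2 and lower on the rest. No DUSP5 probe passed (limma adjusted p from 0.368 to 0.780). DUSP4, a nuclear phosphatase related to DUSP1, was not well above background in either channel on any array, with signals of 96.0 to 105 in the control and 63.2 to 74.3 in the treated channel.

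The Sprouty genes encode membrane-linked inhibitors of growth factor signalling, and SPRY1 is known for its role in returning satellite cells to quiescence. SPRY1 had ratios of 0.13, 0.15, 0.05 and -0.08 at A_69_P089437 (mean 0.06 ± 0.11) and a mean of -0.01 ± 0.04 at A_69_P089436. Neither probe passed (limma adjusted p = 0.408 and 0.814). The probes start at positions 1510 and 1543, so they overlap.

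All 5 SPRY2 probes had a mean above 0, from 0.02 to 0.13, and all start within positions 876 to 888 of 1 transcript. Averaged over the probes, the ratios were 0.08, 0.17, 0.03 and -0.01 on replicates 1 to 4. The most positive was A_69_P040776, at 0.10, 0.21, 0.12 and 0.10, with a mean of 0.13 ± 0.05. It was higher on 4 of 4 arrays and did not pass (limma adjusted p = 0.0622). At the other SPRY2 probe with the same sign on every array, A_69_P040778, the mean was 0.10 ± 0.02 (limma adjusted p = 0.107).

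SPRY4 was not well above background in the treated channel on any array and was so in the control channel on 1 array only. Its signals were 93.7 to 122 in the control and 69.3 to 80.5 in the treated channel. No level or ratio is drawn from this probe.

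SPRED1, which binds RAS-pathway proteins and recruits the RAS-inactivating protein NF1, had the highest mean ratio of the tested regulators. Its control signals were 199, 169, 138 and 175, and its treated signals were 211, 204, 138 and 174. The log2 ratios of 0.06, 0.31, 0.12 and 0.18 were above 0 on 4 of 4 arrays, with a mean of 0.17 ± 0.11 (1.12 of the control). Before normalisation the channels were nearly equal on replicates 3 and 4, so the positive ratios there appeared with the correction. With arrays only centred on their median, the SPRED1 ratio of replicate 1 was -0.09. The difference did not pass the threshold (limma adjusted p = 0.0669). The related SPRED2 was not well above background in either channel on any array, at 81.4 to 104 in the control and 55.4 to 57.5 in the treated channel.

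The array with the lowest ratio differed between genes, while the array with the highest was mostly the same. Replicate 1 held the lowest ratio of ERF, replicate 3 that of both DUSP6 probes and replicate 4 that of both DUSP5 probes of JL624314. Averaged over the tested probes of a gene, replicate 2 held the highest ratio of ERF, DUSP5, DUSP6, SPRY1, SPRY2 and SPRED1. Only for DUSP1 did replicate 2 hold the lowest. What set replicate 2 apart was not tested.

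The rest of the pathway was read from 10 lists of 78 genes, of which 60 are named on the array and 48 have a tested probe; each gene was represented by its brightest tested probe. Of these 2 passed and were higher, none passed as lower, and 24 means lay above and 24 below 0, with a median of -0.0028 beside 0.0088 over 13692 gene names. Over all gene names 9.93% passed as higher and 7.16% as lower. At an unadjusted p under 0.05 by limma, 5 pathway genes were higher and 7 lower, which makes 25% of the 48 beside 36.7% of all gene names. By the methods' t-test with adjustment none of them passed, beside 5 of 24230 probes over the whole array.

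Both genes that passed as higher are in the list of adaptors, which carry the signal from receptors to RAS. They make 4.17% of the 48 genes, beside 9.93% of all gene names. Within the list of adaptors and RAS they are 2 of 6 tested genes (33.3%). A list of 6 genes is too short for a result about the adaptors, and none is drawn. PTPN11, the phosphatase SHP2 that is needed for full RAS activation, had ratios of 0.06, 0.34, 0.29 and 0.37, with a mean of 0.26 ± 0.14 (limma adjusted p = 0.0332). SOS2, an exchange factor that loads RAS with GTP, had ratios of 0.19, 0.17, 0.20 and 0.17, with a mean of 0.18 ± 0.02 (limma adjusted p = 0.0269). SOS2 was thus the steadier of the pair, yet its second tested probe had a mean of 0.06. Without replicate 2, where 3899 of 24230 probes passed over the whole array, SOS2 passed (limma adjusted p = 0.0430) and PTPN11 did not. Without replicate 1, 3 or 4 neither passed. Only 2, 38 and 0 probes then passed over the whole array, so these losses are not particular to PTPN11 or SOS2.

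In each of the other 9 lists no gene passed. The 8 tested receptors had means from -0.07 to 0.12, the 4 of the kinase cascade from -0.12 to 0.06, and the 4 scaffolds from -0.18 to 0.09. The 7 ETS factors, the family of ERF, ranged from -0.13 to 0.16 around a median of -0.01, and ELK4, a target of ERK that activates transcription, was at -0.13 ± 0.04 (chosen after its values were seen). The 5 other dual-specificity phosphatases ranged from -0.13 to 0.10 and the 3 other feedback proteins from -0.09 to 0.08.

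The 6 tested genes that ERK is known to induce had a median of -0.07 and means from -0.12 to 0.19. Of these, 3 had the same sign on all 4 arrays and 3 did not, beside the same sign at 43.8% of all tested probes. EGR1, an early growth response factor singled out after its values were seen, had ratios of -0.08, -0.37, 0.65 and 0.38. Its spread of 0.46 (SD) exceeded its mean of 0.14, as did that of the ETS factor ETV4 (also chosen after its values were seen), with 0.06, 0.78, -0.05 and -0.13. Of the 6 ERK-induced means, 4 lay below 0 and 2 above, and a common direction was not tested. MYC is counted below 0 by its brightest probe, but only 2 of its 4 tested probes had a mean below 0 (-0.11 to 0.05). The other genes of this list had 1 tested probe each.

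**Figure D5:**
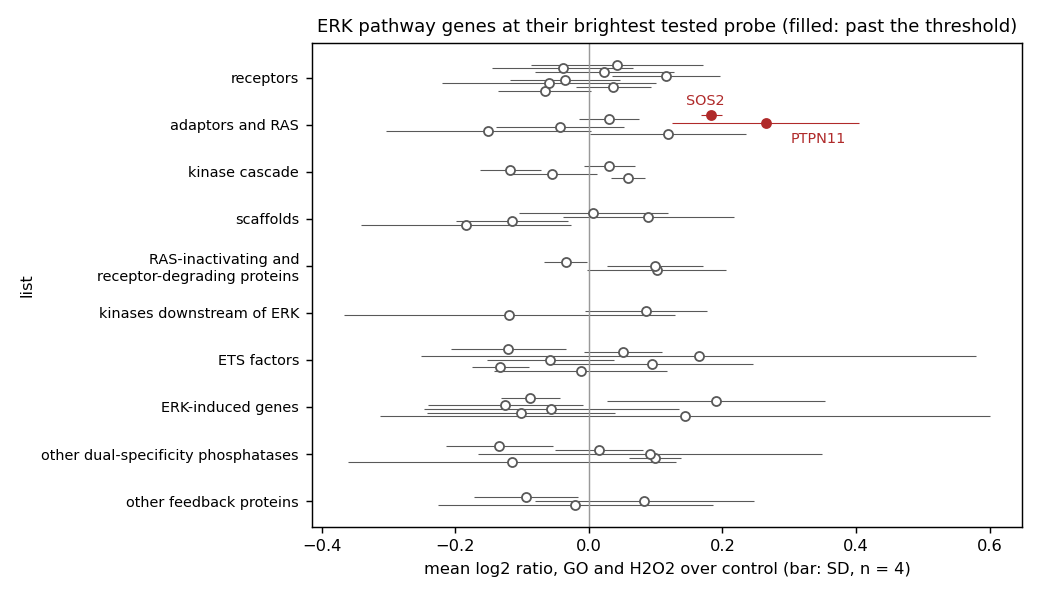
Mean log2 ratio of treated over control for 48 ERK pathway genes in 10 lists, each at its brightest tested probe, with bars for the SD (n = 4). Filled red points mark PTPN11 (0.26) and SOS2 (0.18), the 2 genes past the threshold; open points lie on both sides of 0.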

How the data were processed

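Total RNA of treated (Cy5) and control (Cy3) ESC was hybridised together on 4 two-colour Agilent horse arrays, which per the file headers share a slide. The deposited files hold mean spot and background intensity, Agilent's processed intensity and its log10 ratio, made by the authors with Feature Extraction 10.10.1.1. The deposited value table equals that log10 ratio. Scanner files also hold 0 or 1 marks per spot.

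Here, mean intensity was corrected with normexp (offset 50) and loess within each array in limma 3.58.1 (R 4.3.3). Control spots got no weight, spots marked as outliers (7 to 16 of 43803 gene spots per array) were left out and spots of a probe were averaged. A probe was tested if one of its channels was well above background on each of the 4 arrays (24230 probes). Channel levels, unlike ratios, were also made comparable between arrays by quantile normalisation of the average log2 signal (Aquantile). The log2 ratio was tested against 0, with Benjamini-Hochberg adjustment over all of them and a threshold of 0.05. The control is the channel of the same array, and whether replicates are separate cultures is given only as "biological replicate". The number of arrays limits the precision. The code was tested on simulated data.

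Members, gene lists and tests were chosen with earlier results of these data known. Named genes were every member probe, the 2 strongest passing genes per pathway list and the 5 nearest to ERF by distance. ELK4, EGR1, ETV4, MYC, the lowest genes and the genes of other settings were named outside this rule, after their values were seen. Probes were named by the array's own gene names. Coordinates are the array's (EquCab1), and stretches shared with other probes were counted from 20 bases. Coding and untranslated parts were not used here.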

Additional observations from a re-analysis of the deposited data

How the results depend on the processing

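The ERF mean at its brightest probe was -0.62 as reported, and -0.61 to -0.67 under other background corrections, normalisations and the processed signals. With 1 array left out it was -0.45 to -0.74. All 4 ratios of this probe were negative, so leaving out an array could not turn the sign. Other filters and tests leave this mean as it is, so they do not bear on it. Where arrays were only centred on their median (no loess), the average over the 4 ERF probes was -1.47, -0.03, -0.82 and -0.23 on replicates 1 to 4, and 3 of the 4 probes were below 0 on replicate 2.

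Of the regulator probes, 1 passed as reported. None (0) passed with normexp offset 0, Agilent processed signals, the series matrix log ratios, median centring, the running median over signal, the filter on both channels, limma with trend and robust, the methods' t-test, or the channels as separate samples (no replicate block). With no filter on dim probes 2 of 21 passed, DUSP6 and the dim SPRY4, beside 5298 of 43603 probes (12.2%) over the whole array. Without background correction 1 passed, SPRY2 A_69_P040776 (0.15, limma adjusted p = 0.0465) in place of DUSP6. Over the whole array 4342 of 24230 probes (17.9%) then passed, so neither count is a result about SPRY4 or SPRY2. With one array left out, 0 to 1 passed. For DUSP6 at A_69_P103251 the call was lost in 10 of the processings and tests, all with a negative mean.

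Of the pathway genes, 2 passed as reported, and 5 with processed signals and with the series matrix (PTPN11, SOS2 and CBL higher, ELK4 and GABPA lower). With median centring, the methods' t-test or no replicate block 0 passed, and with 1 array left out 0 to 1 passed. With the mean over the probes of a gene 1 passed, beside 2383 of 13692 gene names (17.4%). Between settings, signs were followed only for the brightest tested probe of each member gene and for both DUSP6 probes, not for the pathway genes. Among these probes the only sign that turned was that of DUSP1, at -0.021 without replicate 3. The DUSP1 values with 1 array left out ran from -0.021 to 0.121.

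Over the whole array, 4137 of 24230 probes passed as reported. The regulator call was lost both where the array kept its calls (3402 with offset 0, 3735 with processed signals or the running median, 3803 with the filter on both channels and 4372 with trend and robust) and where it lost most of them: 12 with median centring, 5 by the methods' t-test and 594 with no replicate block. Without replicate 1, 2, 3 or 4, 2, 3899, 38 and 0 passed. The cause was not tested.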
